A study of Mus musculus with 4 samples.

Results

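The transcripts of 9 receptors that steer lymphocytes and myeloid cells between blood and tissues were examined in TNFR2 KO and wild-type NK cells during cytomegalovirus infection. These were 7 chemokine receptors (Ccr1, Ccr2, Ccr7, Cxcr3, Cxcr4, Cxcr6 and Cx3cr1) and 2 receptors for sphingosine-1-phosphate, S1P (S1pr1 and S1pr5), chosen by their symbols from 35798 named genes. RNA was sequenced from Ly49H+ NK cells, the subset that recognises murine cytomegalovirus (MCMV), of wild-type donors carrying CD45.1 and TNFR2 KO donors carrying CD45.2. Both kinds of donor cell were placed together in NSG mice, which were infected with MCMV a day later, and the cells were sorted from the spleen on day 3.5 by Ly49H and by their CD45 form. Each genotype had 2 libraries, each made from a pool of spleens from 3 mice, and the libraries numbered alike in both genotypes came from 1 pool. NSG mice lack their own mature T, B and NK cells, retain myeloid cells and, as mice of NOD background, carry the CD45.1 form themselves. Genotype, donor CD45 form and sort gate changed together, so their effects cannot be told apart. The labels do not give the age or sex of the donors or hosts, but the paper gives an age range in weeks for all experimental mice.

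Chemokine receptors couple to inhibitory G proteins and turn a gradient of a chemokine into directed migration. S1P is high in blood and lymph and low inside tissue, and S1P receptors guide lymphocytes out along this gradient. In NK cells, S1pr5 is known for exit from bone marrow and lymph node, Cxcr4 for retention in bone marrow, Cx3cr1 and S1pr5 for the most mature circulating cells, and Cxcr3, Cxcr6 and Ccr2 for entry into inflamed tissue, spleen and liver. Ccr1 is best known on neutrophils, monocytes and macrophages, Ccr2 on inflammatory monocytes, and Ccr7 on naive lymphocytes and migrating dendritic cells.

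Expression is given as CPM, the count of a gene relative to the size of its library after scaling with TMM factors, and a log2-fold change is TNFR2 KO over wild-type. A gene passed the test if its p, adjusted after Benjamini and Hochberg over all genes tested, was under 0.05 in the quasi-likelihood test of edgeR, and was called if its log2-fold change was also over 1 in size. All 9 receptors passed the filter on low counts and were tested. Of these, 4 were higher in TNFR2 KO (Ccr2, Cxcr3, Cx3cr1 and S1pr5), 4 were lower (Ccr1, Ccr7, Cxcr4 and Cxcr6), and S1pr1 did not pass. Over all 13822 genes tested, 24.2% passed as higher and 26.2% as lower. S1pr5 was called higher, as were 1.56% of all genes, and Ccr1 and Ccr7 were called lower, as were 11.8%. The libraries of the 2 genotypes did not overlap in CPM for any of the 9 receptors, 5 being higher and 4 lower, but this held for 36.4% of all genes in the higher direction and 37.7% in the lower. The receptors' median log2-fold change was 0.08, against -0.0028 over all genes tested.

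The libraries held 32713256 to 39543650 counts, of which the 9 receptors took 0.0851% to 0.117%. Tnfrsf1b, the targeted gene, had 264.7 and 268.6 CPM in wild-type and 55.1 and 58.6 CPM in TNFR2 KO, so its reads were fewer but not absent. Transcripts of 40 NK lineage genes summed to 23315 to 23394 CPM in wild-type and 40719 to 41245 CPM in TNFR2 KO, and 37 of them were higher. Transcripts of 30 macrophage or monocyte genes went the other way, from 3561 to 3605 CPM in wild-type to 474.6 to 476.0 CPM in TNFR2 KO. All 29 of these that were tested were lower, 28 of them called, with a median log2-fold change of -2.95, and none of the list was at 0 in every library. In bulk samples, fewer cells of a type and less RNA per cell cannot be told apart. When the libraries were scaled on these NK lineage genes rather than with TMM, the median over all genes went to -0.68 on the log2 scale, so changes of the receptors are also given on that scale. That scale takes the NK lineage genes as level on average, which was not tested. The genes used for it include Tbx21, Il2rb and Ccl5, which are named below. The duplicates are described as one experiment, so the p-values measure the spread between these pools, which may be partly technical.

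**Figure D1:**
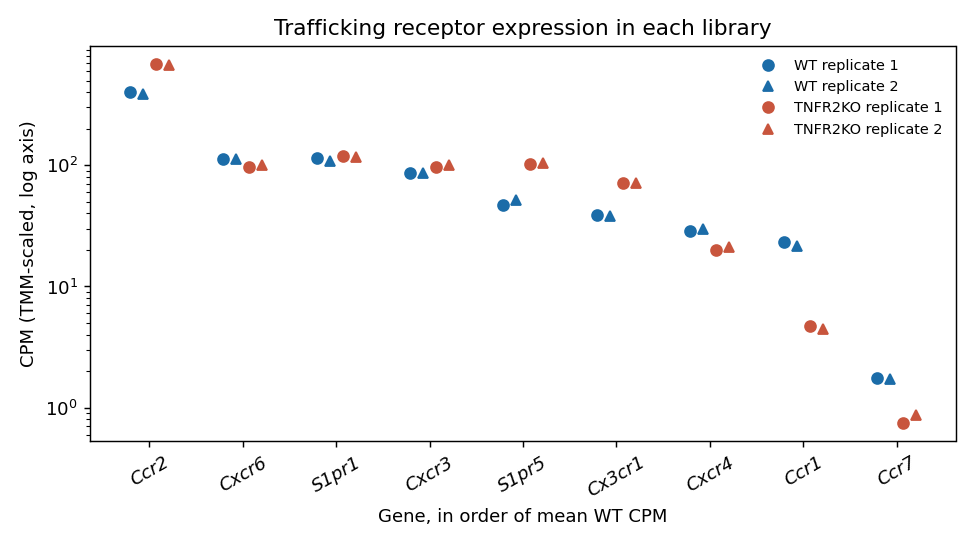
CPM on a log axis for each of the 9 receptors in the 4 libraries, with genes in order of their mean in wild-type (blue, WT; red, TNFR2 KO; circles, replicate 1; triangles, replicate 2). Duplicates nearly coincide, Ccr1 goes from a mean of 22.4 to 4.59 CPM, and S1pr5 from 49.3 to 103.4 CPM.

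The S1P receptors changed unequally. S1pr5 was measured at 47.4 and 51.3 CPM in wild-type and at 102.2 and 104.7 CPM in TNFR2 KO. It therefore rose, with a log2-fold change of 1.07 (standard error 0.0442, edgeR adjusted p = 9.86e-10), a 2.10-fold increase. Within the pools of spleens, the ratio of TNFR2 KO to wild-type CPM was 2.16 in pool 1 and 2.04 in pool 2. On the NK lineage scale the log2-fold change was 0.39 (adjusted p = 5.38e-06), still higher but no longer called. S1pr1, the receptor that lymphocytes in general use to leave lymphoid tissue, was measured at 115.2 and 108.6 CPM in wild-type and at 119.2 and 118.1 CPM in TNFR2 KO. Its wild-type libraries lay just below the TNFR2 KO libraries, and the log2-fold change was 0.08 (95% confidence interval 0.0045 to 0.16, adjusted p = 0.0743). This value passed the test with no filter on low counts (adjusted p = 0.0374) and without wild-type replicate 1 (adjusted p = 0.0201), and on the NK lineage scale it was -0.59 (adjusted p = 1.07e-08). The ratio of S1pr5 to S1pr1 counts within a library does not depend on scaling, and it was 0.411 and 0.472 in wild-type and 0.857 and 0.887 in TNFR2 KO.

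The window before the start of S1pr5 and that of Ccr1 are shown because these genes had the largest changes up and down among the 9. They are the 250 bases upstream of the gene start, read 5′ to 3′ on the gene's own strand from RefSeq promoters on GRCm38.p6, in which 7 of the 9 receptors had an entry. The S1pr5 window also overlaps an exon of Gm48303. Capitals mark matches to the sites searched.
S1pr5, chr9:21248444-21248693, minus strand: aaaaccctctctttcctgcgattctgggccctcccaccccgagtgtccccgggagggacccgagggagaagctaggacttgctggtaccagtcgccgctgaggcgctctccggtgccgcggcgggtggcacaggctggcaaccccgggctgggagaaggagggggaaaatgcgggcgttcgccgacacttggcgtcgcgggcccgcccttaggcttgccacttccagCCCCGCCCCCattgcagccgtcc
Ccr1, chr9:123968693-123968942, minus strand: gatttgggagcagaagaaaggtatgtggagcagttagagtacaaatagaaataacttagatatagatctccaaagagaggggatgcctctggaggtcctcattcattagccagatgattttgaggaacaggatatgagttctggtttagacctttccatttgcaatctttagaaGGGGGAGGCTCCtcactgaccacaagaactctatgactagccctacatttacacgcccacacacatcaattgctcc

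Sites for 4 kinds of transcription factor were searched on both strands of these windows: a T-box core (TCACAC), the E-box CACCTG bound by Zeb factors, a KLF site (CCNCNCCC) and an NF-kB site. S1pr5 held 2 overlapping KLF matches, CCCCGCCC starting 23 bases and CCGCCCCC starting 21 bases before the gene start. Ccr1 held 1 KLF match in the reverse direction, GGGGGAGG at 76 bases, overlapping 1 NF-kB match, GGGAGGCTCC at 74 bases. Among the other windows, Cxcr4 held 3 KLF matches, Cxcr3 held 1 T-box core and 1 E-box, and those of Ccr2, Cxcr6 and Cx3cr1 held none. The windows of Cxcr3, Ccr2, Cxcr6 and Cx3cr1 overlap exons of those same genes in the annotation used for positions. They are therefore not wholly upstream sequence by that annotation. By it, the Cx3cr1 window (120068297 to 120068546) lies wholly inside the gene. Most of the Ccr2 window (124101933 to 124102182) lies past the gene start at 124101950. A KLF site was found in 45.9% of all 32851 promoter windows of this length, an E-box in 17.2%, a T-box core in 12.3% and an NF-kB site in 7.25%. Among 13025 windows of tested genes, the shares were 61.8% for KLF, 15.6% for the E-box, 9.4% for the T-box core and 8.75% for NF-kB. These matches describe the letters only.

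The transcription factors and brakes that act on these receptors moved in several directions. Among 19 genes of receptor control (transcription factors, G protein-coupled receptor kinases, arrestins, regulators of G protein signalling and Cd69), all were tested, 9 were higher, 6 lower and 4 did not pass, with a median log2-fold change of 0.07. Klf2, known for driving S1pr1, had 226.4 and 237.7 CPM in wild-type and 311.6 and 319.6 CPM in TNFR2 KO. Tbx21, which encodes T-bet and is needed for S1pr5 in NK cells, had 237.4 and 235.1 CPM in wild-type and 324.2 and 330.7 CPM in TNFR2 KO. Both rose with TMM scaling, Klf2 by a log2-fold change of 0.44 and Tbx21 by 0.47 (edgeR adjusted p = 1.13e-07 and 1.67e-08), and both were lower on the NK lineage scale, at -0.23 and -0.21. Tbx21 is itself among the NK lineage genes used for that scaling, so its value there is not independent of the scale. Zeb2, a T-bet target of late NK cell maturation, had 88.9 and 87.6 CPM in wild-type and 59.0 and 58.9 CPM in TNFR2 KO. It fell by 0.58 on the log2 scale (edgeR adjusted p = 7.08e-08). Cd69, whose product pulls S1pr1 off the cell surface, had 79.7 and 73.0 CPM in wild-type and 77.0 and 76.0 CPM in TNFR2 KO, and its libraries overlapped (log2-fold change 0.0033, edgeR adjusted p = 0.961). Klf2, Tbx21, Zeb2 and Cd69 were named after their values were seen.

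The kinases and regulators that switch off these receptors were also split. Grk2, Grk6 and Rgs1 were the most abundant of the list, and each rose with TMM scaling, by log2-fold changes of 0.14, 0.25 and 0.63, whereas on the NK lineage scale the values were -0.54, -0.43 and -0.050. Grk3 went from 31.6 and 32.98 CPM in wild-type to 3.23 and 3.90 CPM in TNFR2 KO, or by -3.19 on the log2 scale (edgeR adjusted p = 4.63e-11). Arrb1, an arrestin, and Rgs10 were also called lower, with log2-fold changes of -1.19 and -1.15. These 3 genes were lower beside the macrophage or monocyte list, whose part in their change was not tested.

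Cx3cr1, the fractalkine receptor, was measured at 38.8 and 37.9 CPM in wild-type and at 72.0 and 71.3 CPM in TNFR2 KO. It rose, with a log2-fold change of 0.90 (standard error 0.0433, edgeR adjusted p = 4.03e-09), and by 1.85 and 1.88 times within pools 1 and 2. On the NK lineage scale the log2-fold change was 0.22 (adjusted p = 0.000479). Cx3cr1 is also a receptor of monocytes, and the part of such cells in its value was not tested.

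Cxcr3, the receptor for the interferon-induced chemokines Cxcl9 and Cxcl10, was nearly level between duplicates, at 87.1 and 86.9 CPM in wild-type and 96.8 and 100.8 CPM in TNFR2 KO. It rose slightly with TMM scaling, by a log2-fold change of 0.18 (standard error 0.0363, edgeR adjusted p = 0.00118), and was lower on the NK lineage scale, at -0.49 (adjusted p = 1.06e-07). Cxcr6, whose ligand is Cxcl16, was measured at 112.9 and 112.1 CPM in wild-type and at 96.0 and 99.7 CPM in TNFR2 KO. The wild-type libraries were the higher ones here, and Cxcr6 fell by 0.20 on the log2 scale (standard error 0.0346, adjusted p = 0.000389), or by 0.88 on the NK lineage scale. Within libraries, the ratio of Cxcr6 to Cxcr3 counts was 1.296 and 1.290 in wild-type and 0.992 and 0.988 in TNFR2 KO. This ratio was lower in both TNFR2 KO libraries than in either wild-type library, whatever the scaling.

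Cxcr4, the receptor for Cxcl12, was measured at 28.9 and 29.6 CPM in wild-type and at 20.1 and 21.3 CPM in TNFR2 KO. It fell by 0.50 on the log2 scale (standard error 0.0599, edgeR adjusted p = 2.00e-05), with ratios of 0.697 and 0.718 in pools 1 and 2. On the NK lineage scale the log2-fold change was -1.18, past the limit for a call. The ratio of Cxcr4 to Cxcr3 counts was 0.332 and 0.341 in wild-type and 0.208 and 0.211 in TNFR2 KO. Cxcr4 is carried by many blood cell types, including the myeloid cells whose markers were lower in TNFR2 KO, and the part of those cells in its change was not tested.

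**Figure D2:**
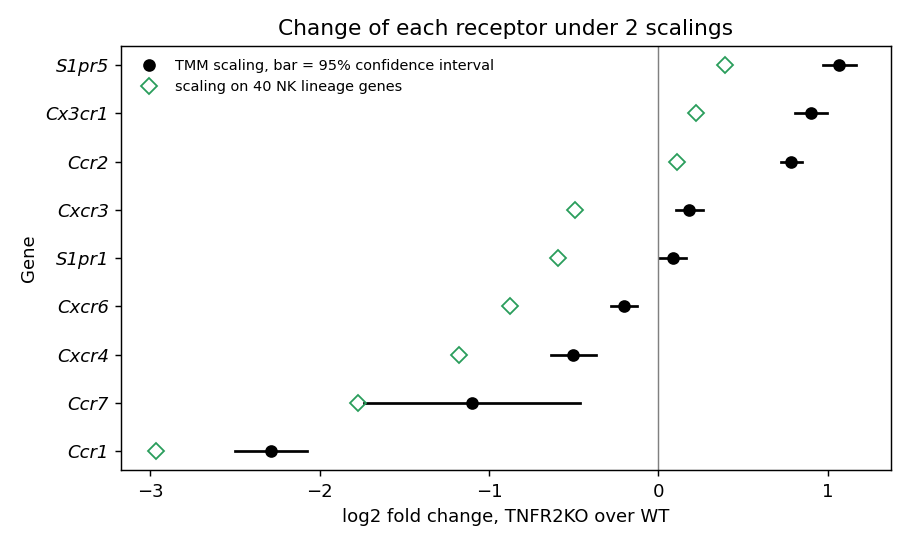
Log2-fold change of TNFR2 KO over WT for each receptor with TMM scaling (black points, with 95% confidence intervals from edgeR) and with scaling on 40 NK lineage genes (green diamonds, no interval drawn). S1pr5, Cx3cr1 and Ccr2 are above 0 under both scalings, Cxcr3 and S1pr1 cross from above to below 0, and Cxcr6, Cxcr4, Ccr7 and Ccr1 are below 0 under both.

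Ccr2, the receptor for Ccl2, was measured at 403.5 and 384.0 CPM in wild-type and 686.6 and 669.7 CPM in TNFR2 KO. It rose, with a log2-fold change of 0.78 (standard error 0.0285, edgeR adjusted p = 2.77e-10), and the ratio was 1.70 in pool 1 and 1.74 in pool 2. On the NK lineage scale it was higher by only 0.11 (adjusted p = 0.00385). Lyz2, Mpeg1 and Cybb, the most abundant genes of the macrophage or monocyte list, had log2-fold changes of -2.79, -3.29 and -3.22. Ccr2 is also a monocyte gene, and the part of such cells in its value was not tested. Of the 31-base stretches in the exons of Ccr2, 3.48% also occur in other genes, so a few of its reads could be shared with them.

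Ccr1, a receptor for Ccl3, Ccl5, Ccl6 and Ccl9, was measured at 23.1 and 21.8 CPM in wild-type and at 4.68 and 4.49 CPM in TNFR2 KO. It had the largest change of the 9, a log2-fold change of -2.29 (standard error 0.0968, edgeR adjusted p = 1.19e-09), or 4.88-fold lower. This fall lay within the range of the macrophage or monocyte genes (-3.67 to -0.97) and of 14 tested neutrophil or granulocyte precursor genes (-7.77 to -1.44), and the part of these cells in it was not tested. Ccr1 changed less than most genes of the former list: the ratio of Ccr1 to Csf1r counts, the latter the macrophage growth factor receptor, was 0.0909 and 0.0852 in wild-type and 0.171 and 0.169 in TNFR2 KO. As a share of the summed macrophage or monocyte counts, Ccr1 was 0.641% and 0.611% in wild-type and 0.986% and 0.944% in TNFR2 KO. Csf1r was named after its values were seen.

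Ccr7 was barely detected, with 67 and 63 counts in wild-type and 29 and 28 in TNFR2 KO. These amount to 1.77 and 1.71 CPM against 0.750 and 0.874 CPM, so that the wild-type libraries were the higher ones. Ccr7 was called lower, with a log2-fold change of -1.10 (standard error 0.293, edgeR adjusted p = 0.00784). This call was lost without wild-type replicate 1 (-1.07, adjusted p = 0.0511) and, as its log2-fold change shrank to -0.98, without TNFR2 KO replicate 1. Genes of dendritic cells and class II antigen presentation, cells that use Ccr7, were lower too: of 12 tested, 9 were called lower, with a median of -2.95. Their summed level was 1774 to 1811 CPM in wild-type and 155.2 to 157.1 CPM in TNFR2 KO, none was at 0 in every library, and their part in the change of Ccr7 was not tested. Relative to Cd74, the most abundant of them, Ccr7 counts were 0.00195 and 0.00185 in wild-type and 0.00957 and 0.0116 in TNFR2 KO.

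Divided by the length of each gene's merged exons, the levels can be set beside each other. In wild-type, Cxcr6 (58.3 ± 0.282 CPM per kb, SD, n = 2) and Ccr2 (58.3 ± 2.04 CPM per kb) came first and did not differ beyond their spread. They were followed by Cxcr3 (50.3 CPM per kb), S1pr1 (36.7), S1pr5 (19.7), Cxcr4 (16.2), Cx3cr1 (8.52), Ccr1 (7.92) and Ccr7 (0.879), with no overlap between the libraries of neighbours. The order in TNFR2 KO was Ccr2 (100.3 ± 1.77 CPM per kb, SD, n = 2), Cxcr3 (57.1), Cxcr6 (50.7), S1pr5 (41.4), S1pr1 (38.9), Cx3cr1 (15.9), Cxcr4 (11.4), Ccr1 (1.62) and Ccr7 (0.410), again without overlap. S1pr5 thus moved from below to above S1pr1, Cx3cr1 from below to above Cxcr4, and Cxcr6 from above to below Cxcr3. With the median length of coding transcripts in place of merged exons, Ccr2 came first in both genotypes (120.9 and 208.2 CPM per kb) and Cxcr4 stood above S1pr5 in wild-type (21.6 against 19.7). By that length, Ccr2 made up 37.4% and 36.4% of the summed level of the 9 receptors in wild-type and 48.7% and 47.4% in TNFR2 KO. With merged exons its share in replicate 1 was 23.1% in wild-type and 32.1% in TNFR2 KO.

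**Figure D3:**
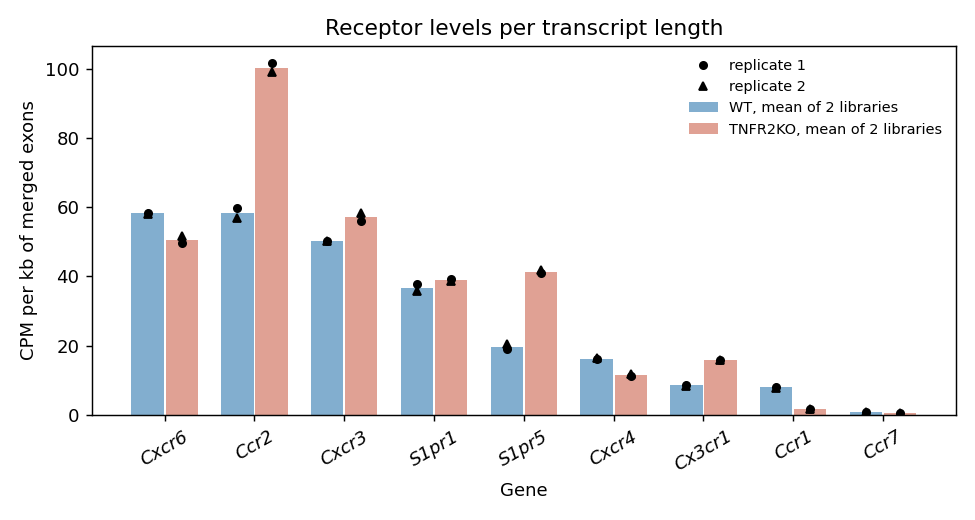
CPM per kb of merged exons for each receptor, with bars for the mean of 2 libraries (blue, WT; red, TNFR2 KO) and points for the libraries. Cxcr6 and Ccr2 are level in WT, whereas in TNFR2 KO Ccr2 reaches 100.3 CPM per kb and S1pr5 lies above S1pr1.

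On GRCm38, 5 of the 9 genes lie on chromosome 9, and Cxcr6, Ccr1 and Ccr2 lie there among other chemokine receptor genes. Ccr1 (chromosome 9, 123962124 to 123968692, minus strand) and Ccr2 (chromosome 9, 124101950 to 124113557, plus strand) start 133.3 kb apart and changed in opposite directions. Between them lies Ccr3, the eotaxin receptor of eosinophils and basophils, with 11.9 and 11.4 CPM in wild-type and 2.82 and 3.21 CPM in TNFR2 KO. Ccr3 fell by 1.95 on the log2 scale (edgeR adjusted p = 1.05e-07), beside 11 basophil or mast cell genes, of which 10 were called lower with a median of -4.64. Their summed level was 1261 to 1265 CPM in wild-type and 31.4 to 32.2 CPM in TNFR2 KO, none was at 0 in every library, and their part in the change of Ccr3 was not tested. Ccr9 and Xcr1, which were named after their values were seen, had log2-fold changes of -0.20 and -0.96 and did not pass the test (edgeR adjusted p = 0.653 and 0.259). Both passed on the NK lineage scale, at -0.88 and -1.63 (adjusted p = 0.0259 and 0.0359). With each library left out, Xcr1, at no more than 0.50 CPM in any library, ran from -2.50, when it passed without TNFR2 KO replicate 2 (adjusted p = 0.0398), to -0.15 without TNFR2 KO replicate 1.

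**Figure D4:**
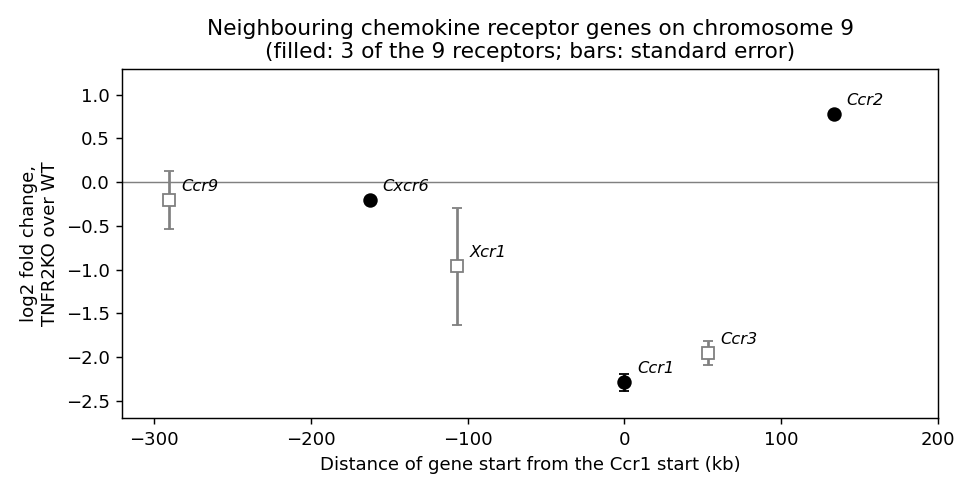
Log2-fold change of TNFR2 KO over WT against the distance of each gene's start from that of Ccr1 in kb, for 6 chemokine receptor genes of chromosome 9 (filled circles, 3 of the 9 receptors; open squares, other receptors; bars, standard error). Ccr1 and Ccr3 lie at -2.29 and -1.95, and Ccr2 lies above 0, at 0.78, with TMM scaling; it remains above 0, at 0.11, with NK lineage scaling.

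The remaining receptors on chromosome 9 were S1pr5 (21242912 to 21248443, minus strand) and Cx3cr1 (119901616 to 120069879, minus strand). Of their 31-base stretches, 1.21% and 3.28% occur in other genes. The sources used here do not say whether reads were assigned by strand, so reads of such shared stretches may not be fully separated. Elsewhere, Ccr7 lies on chromosome 11 (99144196 to 99155077), Cxcr4 on chromosome 1 (128588199 to 128592293), S1pr1 on chromosome 3 (115710433 to 115715072) and Cxcr3 on chromosome X (101731535 to 101734269), all on the minus strand. Cxcr6 runs from 123806475 to 123811760 on the plus strand of chromosome 9.

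Of 19 other chemokine and S1P receptors and related receptors, 12 were tested, of which 2 were higher, 5 lower and 5 did not pass, with a median log2-fold change of -0.64. This median was -0.30 without TNFR2 KO replicate 1 and -0.088 among genes whose mean was 10 CPM or more. Among the 3 most abundant, S1pr4 and Cmklr1 rose with TMM scaling by log2-fold changes of 0.34 and 0.21, but were lower on the NK lineage scale, at -0.34 and -0.46. S1pr4, an S1P receptor of blood cells, had 178.5 and 185.6 CPM in wild-type and 228.6 and 230.9 CPM in TNFR2 KO. The third, S1pr2, had 28.3 and 30.2 CPM in wild-type and 27.8 and 28.7 CPM in TNFR2 KO, with overlapping libraries (log2-fold change -0.052, edgeR adjusted p = 0.498), and was lower on the NK lineage scale, at -0.73 (adjusted p = 1.30e-07). The called ones included Ccrl2, an atypical receptor that binds chemerin, which went from 38.9 and 37.0 to 13.1 and 12.7 CPM (log2-fold change -1.56). Cxcr2, the main chemokine receptor of neutrophils, went from 24.3 and 24.2 CPM to 6.67 and 5.87 CPM, a log2-fold change of -1.94. It stood beside the neutrophil or granulocyte precursor list, of which all 14 tested of 15 genes were called lower with a median of -2.46. The summed level of that list was 1011 to 1027 CPM in wild-type and 94.7 to 98.6 CPM in TNFR2 KO, none was at 0 in every library, and its part in the change of Cxcr2 was not tested.

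The ligands of the receptors were mostly lower. Of 16 ligand genes, 12 were tested, 10 were called lower and 2 were higher, with a median log2-fold change of -3.66, and Ccl21a was at 0 in every library. Cxcl9 and Cxcl10, ligands of Cxcr3, had log2-fold changes of -3.85 and -2.94, and Ccl6, a ligand of Ccr1, of -3.70. Ccl5, which NK cells make and which binds Ccr1, was called higher, with a log2-fold change of 1.28. Ccl3 went from 125.2 and 126.0 CPM to 191.0 and 201.2 CPM and rose with TMM scaling (log2-fold change 0.64), while its value on the NK lineage scale was -0.034. The genes that were lower are known products of macrophages and stimulated stromal cells, and the part of such cells was not tested.

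Genes that make, break or move S1P were lower or did not pass. Of 9 such genes, 8 were tested, 6 were lower and 2 did not pass, with a median log2-fold change of -1.22. The median was -0.71 with no filter on low counts and -0.25 among genes whose mean was 10 CPM or more. Sgpl1, the lyase that breaks S1P down, and Sphk2, a kinase that makes it, fell by 0.23 and 0.22 on the log2 scale, but Sphk2 did not pass without wild-type replicate 1 (-0.16, edgeR adjusted p = 0.0797). Sgpp1, an S1P phosphatase, had 58.0 and 56.8 CPM in wild-type and 63.2 and 56.2 CPM in TNFR2 KO, with overlapping libraries. The called ones among the named were low throughout: Plpp1, a lipid phosphatase, and the S1P exporters Mfsd2b, of red cells and platelets, and Spns2, of endothelium, had at most 6.01 CPM in any library and log2-fold changes of -1.90, -1.72 and -2.07. Erythroid genes were lower beside them (10 tested, 9 lower, 8 of them called, median -1.85), with a summed level of 279.1 to 282.3 CPM in wild-type and 59.7 to 62.3 CPM in TNFR2 KO. Of 8 megakaryocyte genes, 7 were tested and 6 called lower, with 38.2 to 40.9 CPM against 3.93 to 4.81 CPM. Stromal or endothelial genes did not follow in their sum, which was 117.8 to 123.1 CPM in wild-type and 137.4 to 139.0 CPM in TNFR2 KO and consisted mostly of Pecam1, although 4 of 7 tested were called lower. None of these genes was at 0 in every library, and their part in the changes of the exporters was not tested.

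With TMM scaling, the machinery through which the receptors act had small fold changes. All 20 genes of receptor signalling were tested, 12 were higher, 1 lower and 7 did not pass, and none was called. Over all genes tested, 24.2% passed as higher and 26.2% as lower. The log2-fold changes of the list ran from -0.11 to 0.43 with a median of 0.14. Coro1a, an actin regulator needed for lymphocyte exit, Rac2, the GTPase of leukocyte movement, and Gnai2, the inhibitory G protein subunit of these receptors, rose with TMM scaling, by 0.20, 0.33 and 0.14 on the log2 scale, and were lower on the NK lineage scale, at -0.48, -0.35 and -0.54. The list's median was -0.54 on that scale.

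**Figure D5:**
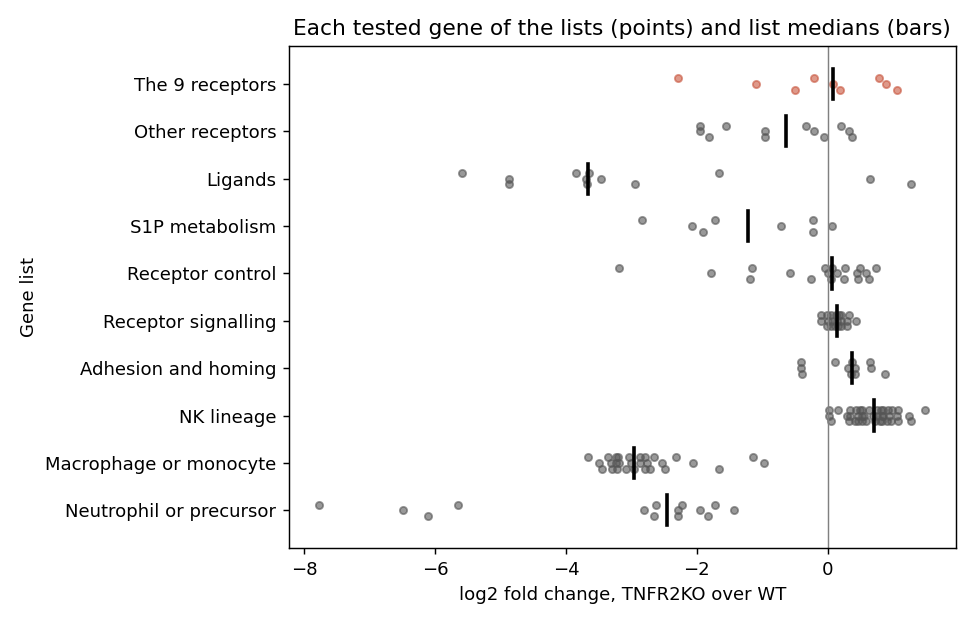
Log2-fold change of TNFR2 KO over WT for each tested gene (points) of the 9 receptors and of 9 gene lists, with TMM scaling and a bar at each list's median. The 9 receptors spread from -2.29 to 1.07, the ligands and the macrophage or monocyte genes have medians of -3.66 and -2.95, and the signalling genes lie between -0.11 and 0.43; with NK lineage scaling the medians of receptor control, receptor signalling, and adhesion and homing turn below 0, at -0.61, -0.54 and -0.31.

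For each receptor, the 2 genes with the most similar values over the 4 libraries were found among genes whose mean was 10 CPM or more, by the Euclidean distance between centred log2 CPM. Before the log was taken, 0.5 was added to each CPM. The closest to S1pr5 was Klra13-ps, a pseudogene of the Ly49 family, with Gpx8 next (distances 0.0495 and 0.0584), and the closest to Cx3cr1 were Srgap3 and Pim2 (0.0384 and 0.0453). Slfn4 and S100a9, a gene of neutrophils and monocytes, were closest to Ccr1 (0.038 and 0.0758). Trim12a and Lzts1 were closest to Ccr2, Zfp609 and Znrf1 to Cxcr4, and Myo9a and Ermn to Ccr7. The added 0.5 shrinks the change of the low Ccr7. By edgeR, Myo9a and Ermn fell less than Ccr7, with log2-fold changes of -0.82 and -0.81 against -1.10. The neighbours of the receptors that changed least were Dctn6 and Mark2 for Cxcr3, St3gal1 and Prr11 for Cxcr6, and Itsn2 and Ncoa6 for S1pr1. These distances rest on 4 libraries in 2 groups and are a description.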

How the data were processed

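Poly-A enriched, strand-specific, paired-end libraries were made by the authors from sorted Ly49H+ NK cells. The authors trimmed reads with Trimmomatic 1.4 and assigned them to transcripts of mm10 with Kallisto 0.46.1 and Tximport, and deposited estimated counts (expected counts) per gene symbol, not scaled between libraries. Which transcript annotation they used was not given in the sources used here. A row without a gene name held 0.0559% to 0.0728% of the counts and was left out.

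Counts were rounded, filtered with filterByExpr (minimum count 10) and tested with edgeR 4.0.16 in R 4.3.3 (TMM, quasi-likelihood, genotype as the only term, Benjamini-Hochberg adjustment over 13822 genes). The steps were tested on simulated data. The receptors and gene lists were chosen with earlier results of these data known. Named genes were the 9 receptors, Tnfrsf1b, the 3 most abundant genes of each list, up to 3 called genes per direction of each list other than cell type markers, and the 2 most similar genes per receptor; 1 gene was left out of the lists and is not reported here. Marker lists were of macrophage or monocyte, neutrophil precursor, basophil or mast, dendritic or class II, T cell, B cell, erythroid, megakaryocyte, and stromal or endothelial genes.

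Same-numbered libraries came from the same pooled spleens per the labels, so the numbers pair the samples. Across genes, the correlation between paired libraries' deviations from the mean of their genotype was 0.0487. Duplicates differed by more than sampling noise, the chi-square per gene averaging 3.29 in wild-type and 3.49 in TNFR2 KO, where noise alone gives about 1, and edgeR's biological coefficient of variation was 3.33%. An exact two-sided permutation test of 2 against 2 libraries cannot give p below 0.333, so none was used. Depth left Ccr7, at 28 to 67 counts, the least precise value. Positions, exon lengths and shared 31-base stretches came from GENCODE M21 on GRCm38, which matched 9 of 9 receptors. Promoter windows came from RefSeq on GRCm38.p6. Alternatives were DESeq2 1.42.0, its size factors within edgeR, scaling by the upper quartile, by library size alone or by 40 NK lineage genes, no filter, a minimum mean of 10 CPM, a replicate block, and leaving out each library. Plots were drawn with matplotlib 3.10.9 in Python 3.11.15.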

Additional observations from a re-analysis of the deposited data

How the results depend on the processing

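Scaling on the NK lineage genes gave 3197 called genes in place of 1842, 45 higher and 3152 lower (98.6% lower in place of 88.3%), and a mean of at least 10 CPM, which tests 8765 genes, gave 480, 56 higher and 424 lower. With NK lineage scaling 3 receptors were called, Ccr1, Ccr7 and Cxcr4, and Cxcr3 (-0.49) and S1pr1 (-0.59) turned below 0. In log2-fold changes, the same scaling turned S1pr4 (-0.34), Cmklr1 (-0.46), Ccl3 (-0.034), Sgpp1 (-0.62), Grk2 (-0.54), Grk6 (-0.43), Rgs1 (-0.050), Coro1a (-0.48), Rac2 (-0.35), Gnai2 (-0.54), Itgal (-0.37), Itgb2 (-0.26), Itgb1 (-0.57), Cd3g (-0.58), Cd28 (-0.62), Pecam1 (-0.36), Il2rb (-0.24), Spn (-0.33), Irf8 (-0.077), Klf2 (-0.23), Tbx21 (-0.21), Cd69 (-0.67), Dctn6 (-0.49), Mark2 (-0.50), Itsn2 (-0.59) and Ncoa6 (-0.58), and the medians of receptor control (-0.61), receptor signalling (-0.54), adhesion and homing (-0.31) and NK maturation genes (-0.55). Library size alone turned Sgpp1 (-0.00044), Cd28 (-0.0034) and Cd69 (-0.058), a mean of at least 10 CPM turned Cd69 (-0.033) and the median of stromal or endothelial genes (0.28), and with each library left out Sgpp1 ran from -0.020 (without TNFR2 KO replicate 1) to 0.15, Cd69 from -0.050 (without wild-type replicate 2) to 0.076, and S1pr2 from -0.090 to 0.0043 (without wild-type replicate 2).

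The 7 receptors other than Cxcr3 and S1pr1 kept their direction in every alternative that tested them. With each library left out, Ccr7 ran from -1.20 to -0.98, with adjusted p from 0.00837 to 0.0511, and S1pr1 from 0.051 to 0.14, with adjusted p from 0.0201 to 0.382. In these 4 fits 2 or 3 receptors were called and 8 passed. S1pr1 was also past the threshold with no filter, at 0.090. The replicate block, which pairs libraries of the same pool, called 1830 genes and changed no call of a receptor, with S1pr5 at 1.07, Ccr1 at -2.29, Ccr7 at -1.10 (adjusted p = 0.0106) and S1pr1 at 0.08 (adjusted p = 0.0587). Ccr7 and all B cell genes fell below a mean of 10 CPM, so they have no value there. The same holds for other low genes, among them Ccr3, Rgs10, Plpp1, Mfsd2b, Spns2, Xcr1, Ccr9 and Il7r. At 28 to 67 counts, depth limits Ccr7, and 2 libraries per genotype limit what can be said beyond these pools. The cause of these shifts was not tested.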

Other observations

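Genes of adhesion and homing, which work after a chemokine receptor has been triggered, were all tested: of 12, 8 were higher, 3 lower and 1 did not pass, none was called, and the median log2-fold change was 0.37. The most abundant were Itgal and Itgb2, the 2 chains of LFA-1, and Itgb1. Itgal had 1531 and 1544 CPM in wild-type and 1891 and 1920 CPM in TNFR2 KO, and Itgb2 had 1441 and 1437 CPM against 1906 and 1937 CPM. With TMM scaling Itgal, Itgb2 and Itgb1 rose by log2-fold changes of 0.31, 0.42 and 0.11 (edgeR adjusted p = 7.70e-08, 4.51e-09 and 0.00125), and on the NK lineage scale they were lower, at -0.37, -0.26 and -0.57. Itgb1 did not pass with library size alone (0.048, edgeR adjusted p = 0.0877).

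Genes of NK cell maturation, along which S1pr5 and Cx3cr1 are known to be gained, went both ways, with 7 of 14 higher and 7 lower. Their median log2-fold change was 0.13. The list does not separate genes gained from genes lost along maturation, so its counts and median give no direction along it. Itgam, which encodes CD11b, had 368.2 and 370.3 CPM in wild-type and 707.1 and 706.2 CPM in TNFR2 KO (log2-fold change 0.94, edgeR adjusted p = 6.82e-12). Cma1, a mast cell protease gene, had 21.9 and 23.1 CPM against 71.9 and 73.3 CPM and was called higher (1.69), while the basophil or mast cell list was lower. Spn and Irf8 rose with TMM scaling, by 0.35 and 0.60, and were lower on the NK lineage scale, at -0.33 and -0.077. The 3 genes of the list called lower, Emb, Ltb and Il7r, had log2-fold changes of -1.23, -1.16 and -1.45. Of 12 T cell genes, 8 were lower and 2 higher, with a median of -0.27 and a summed level of 1304 to 1312 CPM in wild-type and 1103 to 1107 CPM in TNFR2 KO. Of 10 B cell genes, 2 were tested and both were lower, with 5.35 to 5.48 CPM against 2.84 to 3.23 CPM in all.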
